A study of Rattus norvegicus with 6 samples.

Results

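Prostatein and spermine-binding protein are secreted products of the rat prostate, and their 4 genes were followed on every array of a corn oil feeding study. Prostatein is built from a C3 chain, encoded by Scgb2a1, that is joined to a C1 chain, encoded by Scgb1d2, or a C2 chain, encoded by Scgb1d4. Sbp encodes spermine-binding protein. Every probe set annotated to these genes, by current symbol or older synonym, was taken: 7 of the 8799 probe sets in the value table, and 4 of the 4736 genes named there. Sbp had 1 and each prostatein gene had 2. One of the Scgb2a1 probe sets, J00777_at, is annotated to that symbol under more than 1 gene identifier and was kept.

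The arrays measured total RNA of the dorsolateral prostate, from resected tissue that was not separated into cell types. The rats were male, of the inbred ACI strain, and the labels give 18 months both as the time on the diet and as the age. They had eaten a high corn oil diet (3 rats) or a low corn oil diet, the control (3 rats), with 1 array for each rat, and the fat content of the diets is not given in the sources used here. High corn oil replicate 3 is placed in the high group by its title and source name, whereas the free text of its label speaks of the low diet.

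As background, prostatein is a secretoglobin, a small disulfide-linked protein of secretions that binds steroids and other hydrophobic ligands. In the rat it is the main secreted protein of the ventral prostate, and its genes are textbook examples of androgen-dependent transcription. Spermine-binding protein is another androgen-dependent secretion best known from the rat ventral prostate, where it binds the polyamine spermine of prostatic fluid. The dorsal and lateral lobes are better known for probasin and microseminoprotein.

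The 3 prostatein genes lie on chromosome 1 of the GRCr8 rat assembly as neighbours in a secretoglobin cluster, in the order Scgb1d2, Scgb1d4, Scgb2a1. The related Scgb1a1 and Scgb1d2l1 lie on the Scgb1d2 side. Sbp lies on chromosome 10. RefSeq promoter windows of 300 bases on GRCr8, from 250 bases before to 50 after the annotated start, are shown for the prostatein genes. All are written 5′ to 3′ on the gene's strand, and capitals mark TATAAA or TGTTCT.
Scgb1d2, chr1:215656661-215656960, minus strand: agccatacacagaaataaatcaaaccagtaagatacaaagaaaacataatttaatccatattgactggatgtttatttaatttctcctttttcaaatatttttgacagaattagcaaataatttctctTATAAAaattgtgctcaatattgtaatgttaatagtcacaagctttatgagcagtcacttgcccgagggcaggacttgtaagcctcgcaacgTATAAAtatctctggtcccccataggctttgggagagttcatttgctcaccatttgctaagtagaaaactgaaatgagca
Scgb1d4, chr1:215755113-215755412, plus strand: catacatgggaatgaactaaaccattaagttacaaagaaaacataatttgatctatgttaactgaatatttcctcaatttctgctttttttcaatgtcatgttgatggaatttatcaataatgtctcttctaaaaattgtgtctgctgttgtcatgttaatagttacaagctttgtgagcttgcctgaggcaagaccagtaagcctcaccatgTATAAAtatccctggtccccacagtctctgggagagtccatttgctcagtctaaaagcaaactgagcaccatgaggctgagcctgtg
Scgb2a1, chr1:215922501-215922800, plus strand: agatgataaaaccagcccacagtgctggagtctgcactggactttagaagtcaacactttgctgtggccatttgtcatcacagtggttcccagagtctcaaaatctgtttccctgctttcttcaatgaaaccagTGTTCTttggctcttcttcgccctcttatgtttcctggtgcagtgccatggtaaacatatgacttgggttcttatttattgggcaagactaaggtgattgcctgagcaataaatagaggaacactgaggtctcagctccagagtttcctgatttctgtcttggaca

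In a global alignment, the windows of Scgb1d2 and Scgb1d4 shared 79.5% of their 283 aligned bases. Scgb2a1 shared 65.0% with Scgb1d2 and 68.5% with Scgb1d4, close to the 56.6% to 65.2% between Sbp windows and the others. Both Scgb1d2 and Scgb1d4 had TATAAA shortly before the start, beginning at positions -30 and -37, and Scgb1d2 had it again at -122. Of 33469 RefSeq windows of the same length, 8.80% held TATAAA on the gene's strand, and 2.26% held it within the last 50 bases before the start. The androgen response element is a pair of AGAACA-like short sites, so AGAACA and its reverse complement TGTTCT were searched on both strands. Scgb2a1 had TGTTCT at -116, and 20.7% of all windows held at least 1 of these forms. The 3 annotated Sbp windows held neither motif. The full palindrome, AGAACA and TGTTCT spaced by any 3 bases, was in 0 of the 6 windows, and in 0.0149% of all windows. A match describes letters only, and binding was not measured.

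The values are linear intensities with the same trimmed mean on every array, and on each array 18.6% to 23.1% of probe sets had no value above 0. All 7 probe sets were above 0 on all 6 arrays. Over the tested probe sets high corn oil replicate 1 was unlike its diet mates, with a Spearman correlation of 0.869 and 0.881 with them and 0.927 to 0.950 with the low arrays. The bacterial spike-ins BioB, BioC and BioD were brighter on 3 arrays (replicate 1 of the high diet, replicates 1 and 2 of the low diet), at a mean log2 signal of 13.9 to 14.4, than on the other 3 arrays, at 12.6 to 13.2. The number of arrays, 3 for each diet, limits the precision.

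These secretory genes differed between single rats far more than between diets. Their signal was high in replicates 2 and 3 of the high diet and in replicate 1 of the low diet, lower in low corn oil replicates 2 and 3, and lowest in high corn oil replicate 1. That lowest place held for 7 of 7 probe sets, against 17.7% of all tested probe sets. The first 3 arrays were the 3 highest for 7 of 7, and the share of all tested probe sets with that order was not counted. In bulk tissue, fewer secretory cells and less RNA in each cell cannot be told apart.

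Sbp (probe set J02675_at) had intensities of 1891, 45313 and 53056 in high corn oil replicates 1, 2 and 3, against 39729, 6801 and 12179 in low corn oil replicates 1, 2 and 3. The high diet thus held both the lowest and the highest array, and the diets overlapped. The highest array was 28.1 times the lowest. The mean was 33420 ± 27578 (SD, n = 3) under the high diet and 19570 ± 17665 under the low diet. On the log2 scale, after adding 156.1 intensity units to every value, the high minus low difference was 0.18 ± 1.26 (SE), with a 95% interval of -2.79 to 3.14 (limma adjusted p = 0.963).

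Scgb2a1, the C3 chain common to both kinds of prostatein pair, was read by a probe set marked as shared between similar transcripts and by a further one. The shared one, J00772_s_at, had 12779, 45920 and 53290 in high corn oil replicates 1 to 3, against 61356, 22675 and 42862 in low corn oil replicates 1 to 3. J00777_at had 1991, 35359 and 39508 in the high corn oil arrays, against 19920, 5450 and 9474 in the low ones. Both were lowest in high corn oil replicate 1, but they differed in which array was highest. The log2 difference between diets was -0.31 ± 0.58 (SE) for J00772_s_at and 0.49 ± 1.10 for J00777_at (limma adjusted p = 0.834 and 0.864).

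Scgb1d2, the C1 chain, showed the same pattern with the widest range of all 7 probe sets. V01255_at had 1091, 48058 and 58142 in high corn oil replicates 1 to 3, against 31935, 7226 and 11207 in low corn oil replicates 1 to 3, so that the highest array was 53.3 times the lowest. J00774cds_s_at had 3636, 36941 and 43508 in the high corn oil arrays, against 45781, 15797 and 18710 in the low ones, a ratio of 12.6. The diets overlapped in both. Their log2 differences were 0.13 ± 1.42 (SE) and -0.39 ± 0.92 (limma adjusted p = 0.978 and 0.874).

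Scgb1d4, the C2 chain, varied less among the low corn oil rats than Sbp or Scgb1d2 did. J00776cds_s_at had 5583, 31960 and 37234 in high corn oil replicates 1 to 3, against 44078, 23637 and 27037 in low corn oil replicates 1 to 3. X05034_at had 4520, 43530 and 51463 in the high corn oil arrays, against 30975, 20698 and 16253 in the low ones. High corn oil replicate 1 was below every low array in both. The highest low array was 1.86 and 1.91 times the lowest low one, compared with 5.84 times for Sbp. The log2 differences between diets were -0.68 ± 0.68 (SE) and -0.0049 ± 0.86 (limma adjusted p = 0.688 and 0.998).

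**Figure D1:**
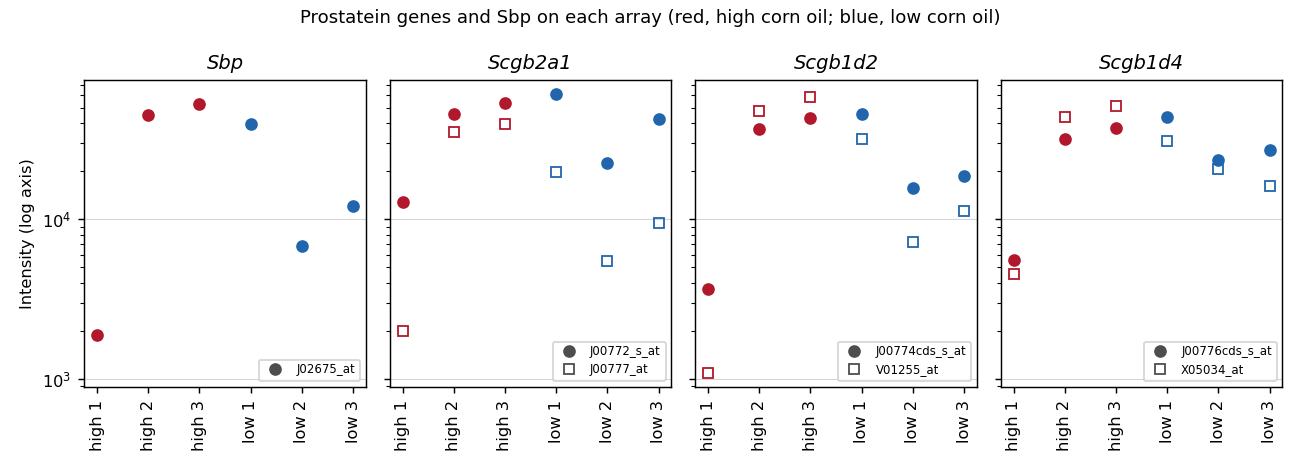
Intensity (log axis) of each probe set on each array, with 1 panel for each gene, high corn oil arrays in red on the left and low corn oil arrays in blue on the right; filled circles and open squares are different probe sets of a gene. In every panel high corn oil replicate 1 is lowest, and replicates 2 and 3 of the high diet and replicate 1 of the low diet are highest.

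No probe set of these genes passed the test for a diet difference, and none had diet groups that did not overlap. Limma's test over all 5244 tested probe sets called 0 of the 7 at an adjusted p under 0.05, where it called 0% of all tested probe sets. At an unadjusted p under 0.05 it gave 0 of the 7, against 9.95% of all. Groups did not overlap for 0 of the 7, against 15.5% of all, of which 8.83% had all high arrays above all low ones and 6.71% below. The high minus low log2 difference was above 0 for 3 and below 0 for 4 of the 7, with a median of -0.0049, while the median of all tested probe sets was 0.032. All 7 intervals were wide, the narrowest running from -1.68 to 1.06 (J00772_s_at) and the widest from -3.20 to 3.46 (V01255_at), so the test does not show that the diets were alike.

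The sign of the comparison rested on single arrays. Without high corn oil replicate 1 all 7 log2 differences were above 0, from 0.18 to 1.93, and 0 of 7 passed the adjusted threshold, where limma then called 4.08% of all tested probe sets. The smallest adjusted p, 0.0794, was that of the Scgb1d4 probe set X05034_at, whose difference was then 1.11 ± 0.27 (SE). Sbp was then at 1.71 ± 0.68 (limma adjusted p = 0.179), and V01255_at of Scgb1d2 at 1.93 ± 0.58 (limma adjusted p = 0.112). At an unadjusted p under 0.05 there were 4 of 7, against 26% of all. Without high corn oil replicate 2 all 7 were below 0, from -1.06 to -0.15, and without high corn oil replicate 3 from -1.17 to -0.23. The number above 0 was 6 of 7 without low corn oil replicate 1, 1 of 7 without low corn oil replicate 2 and 2 of 7 without low corn oil replicate 3.

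**Figure D2:**
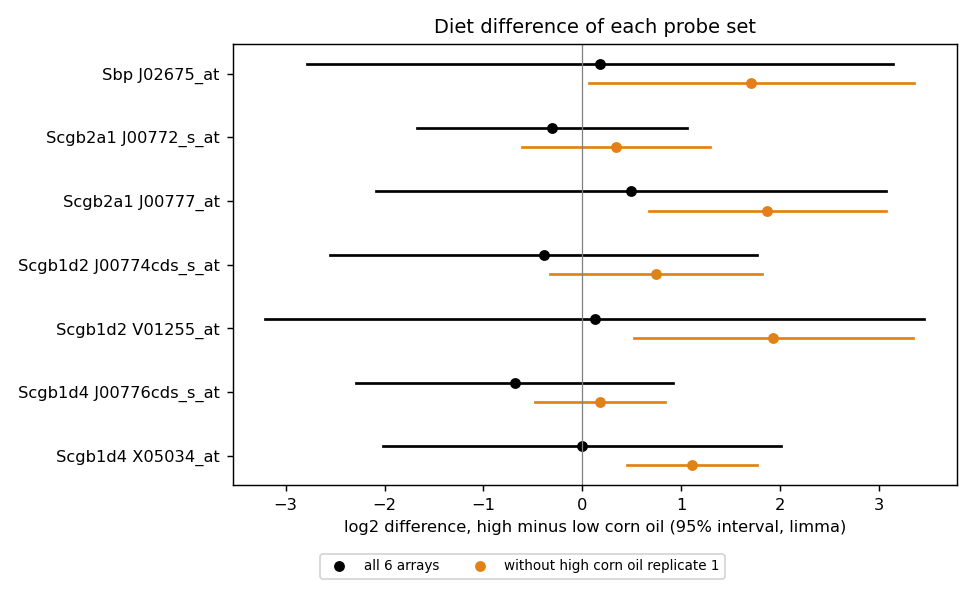
High minus low corn oil difference of each probe set in log2 units (point) with its 95% interval from limma (line), for all 6 arrays (black) and without high corn oil replicate 1 (orange). With all arrays every interval spans 0; without that array every point lies above 0, and 4 of 7 intervals lie above 0.

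Spike-in level was treated as a possible batch, although each level holds a single array of 1 diet, so the values within it have no test and follow from the order of the arrays given above. Among the bright arrays, high corn oil replicate 1 was below low corn oil replicates 1 and 2 for 7 of 7 probe sets, by -3.63 to -1.53 in log2. Among the dim ones, high corn oil replicates 2 and 3 were above low corn oil replicate 3 for 7 of 7, by 0.21 to 2.22. With spike-in level as a block, all 7 differences were below 0 and Sbp was at -0.51 ± 1.19 (SE, limma adjusted p = 0.907). The part of the spike-in level in these differences was not tested.

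The spread between rats of the same diet was among the largest on the array. Pooled over both diets, the SD of the log2 intensity was 2.34 for V01255_at of Scgb1d2 and 2.08 for Sbp, which ranked 8 and 12 among the 5244 tested probe sets. J00777_at of Scgb2a1 was at 1.81 (rank 25), and the other Scgb1d2 and Scgb1d4 probe sets were at 1.11 to 1.51. The smallest value, 0.95, was that of J00772_s_at of Scgb2a1 at rank 269. The median of all tested probe sets was 0.31, and 6 of the 7 were above their 95th percentile of 0.955. The median SD of all tested probe sets was itself larger under the high diet, at 0.313 against 0.226 under the low diet. The SD of the 7 was larger under the high diet for 7 of 7, at 2.65 against 1.28 for Sbp and 1.93 against 0.47 for X05034_at of Scgb1d4. Among the low corn oil rats alone, all 7 were above the median SD of all tested probe sets.

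**Figure D3:**
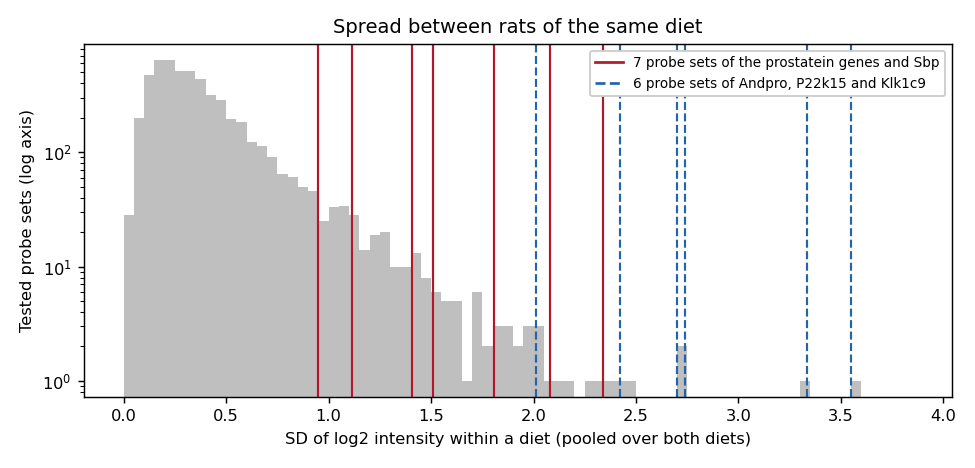
Histogram of the SD of log2 intensity between rats of the same diet (x axis, pooled over both diets) over 5244 tested probe sets (y axis, log scale); solid red lines mark the 7 probe sets of the prostatein genes and Sbp, dashed blue lines those of Andpro, P22k15 and Klk1c9. The red lines lie between 0.95 and 2.34, to the right of the median of 0.31.

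The 4 genes moved together across the rats. Over the 21 pairs of probe sets, Pearson's r of the log2 values over the 6 arrays was 0.860 to 0.993, with a median of 0.951. Without high corn oil replicate 1 it was 0.526 to 0.994 over 5 arrays, with a median of 0.882. Sbp and V01255_at of Scgb1d2, which lie on different chromosomes, had the highest value over 6 arrays, 0.993, and 0.990 without that array. The lowest with and without that array were in pairs that join a Scgb2a1 with a Scgb1d4 probe set. The arrays share their RNA and scaling between genes, so these values describe the 6 rats.

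Probe sets of the same gene did not keep a constant ratio. Set to a mean of 0 over the low corn oil arrays, the log2 ratio of V01255_at to J00774cds_s_at of Scgb1d2 was -0.94, 1.18 and 1.21 in high corn oil replicates 1 to 3, against 0.28, -0.33 and 0.06 in the low corn oil arrays. For Scgb2a1 the ratio of J00777_at to J00772_s_at was -0.73, 1.58 and 1.52 in the high corn oil arrays, against 0.33, -0.10 and -0.23 in the low ones. For Scgb1d4 the ratio of X05034_at to J00776cds_s_at was 0.17, 0.92 and 0.95, against -0.03, 0.29 and -0.26. In all 3 genes the probe set marked as shared had the lower ratio of highest to lowest array. Probe sets so marked can read similar transcripts of related genes, and the split between Scgb1d2 and Scgb1d4 is uncertain.

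3 of the 5 other tested genes best known from the ventral prostate followed the same rats. Andpro and P22k15 encode androgen-regulated cystatin-related proteins of the rat ventral prostate, and Klk1c9 encodes a tissue kallikrein. The Andpro probe set Z13993_f_at had 531, 43932 and 32353 in high corn oil replicates 1 to 3, against 20430, 2521 and 1428 in low corn oil replicates 1 to 3. P22k15 (M58169_f_at) had 1005, 40468 and 45976 in the high corn oil arrays, against 28194, 3892 and 3885 in the low ones. Klk1c9 (M11566_f_at) had 578, 36704 and 44197, against 15960, 1374 and 1895. These 3 probe sets carry a mark for gene families with similar sequence, so related genes may contribute.

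For each of these probe sets high corn oil replicate 1 was lowest and replicates 2 and 3 of the high diet and replicate 1 of the low diet were highest, and the diets overlapped. The log2 differences between diets were 1.17 ± 1.66 (SE) for Andpro, 0.74 ± 1.47 for P22k15 and 1.52 ± 1.64 for Klk1c9 (limma adjusted p = 0.777, 0.843 and 0.707). Their spread within diets ranked 3, 6 and 4 of 5244, and the first 2 places were taken by S57980cds_s_at of Andpro and M58169_i_at of P22k15. In the list of ventral prostate genes, 10 of 12 had a probe set and 5 were tested, of which 0 passed in either direction. The summed intensity of those 5 was 11603, 132925 and 130733 in high corn oil replicates 1 to 3, against 70969, 16011 and 14733 in the low corn oil arrays. The remaining tested genes of the list had another order. Cyss, which encodes a cystatin, had 8769, 10725 and 7638 in the high corn oil arrays, against 5659, 7828 and 7099 in the low ones (M75281_at), lowest in low corn oil replicate 1. Apod, which encodes a lipocalin that carries lipids, had 720, 1096 and 570, against 726, 396 and 426. The protease inhibitor gene Spink1 was at or below 0 on 2 high arrays and 1 low array and was not tested.

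Several genes listed as dorsolateral secretions were bright on every array, in another order among the rats. Azgp1 of the same list was dim, at 168 to 658 on its brightest probe set, and was not tested. Pbsn, which encodes probasin, had 99574, 19851 and 21926 in high corn oil replicates 1 to 3, against 78113, 82039 and 81437 in the low corn oil arrays (M27156_at). Msmb, which encodes microseminoprotein, had 73854, 33652 and 39953, against 66835, 71719 and 80234. Both were low in the high corn oil rats with much Sbp. In low corn oil replicate 1, however, Sbp was the highest of its diet while Pbsn was close to its level in the other low arrays. The log2 differences between diets were -1.19 ± 0.57 (SE) for Pbsn and -0.65 ± 0.28 for Msmb (limma adjusted p = 0.505 and 0.501).

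The other bright Pbsn probe set, M27156_g_at, had the same order at its ends with a smaller range, at 61062, 32500 and 37102 in the high corn oil replicates, against 49692, 49448 and 53756 in the low ones. Its log2 difference was -0.28 ± 0.24 (SE, limma adjusted p = 0.647), so the size for Pbsn depended on the probe set. Tgm4, the transglutaminase of the copulatory plug, had 31002, 27652 and 13870, against 37737, 41267 and 5749 (M32725_s_at), and was lowest in low corn oil replicate 3.

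Semg1, which encodes a semenogelin of the copulatory plug, had 56555, 42256 and 48673 in high corn oil replicates 1 to 3 (J05443cds_at), against 47952, 38903 and 57232 in the low ones. Its brighter probe set, rc_AI639526_at, had 80278, 30689 and 36240, against 58912, 62612 and 75216, and so was lowest in the high corn oil rats with much Sbp. Of 6 listed dorsolateral genes 5 were tested, 0 passed, and the median log2 difference was -0.54. Their summed intensity was 338621, 152362 and 158784 in high corn oil replicates 1 to 3, against 296456, 302436 and 298619. High corn oil replicate 1 thus had the highest sum of these genes and the lowest signal of the prostatein genes, while the low corn oil rats differed little in this sum. Whether the share of ventral tissue in the resected lobe plays a part was not tested.

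**Figure D4:**
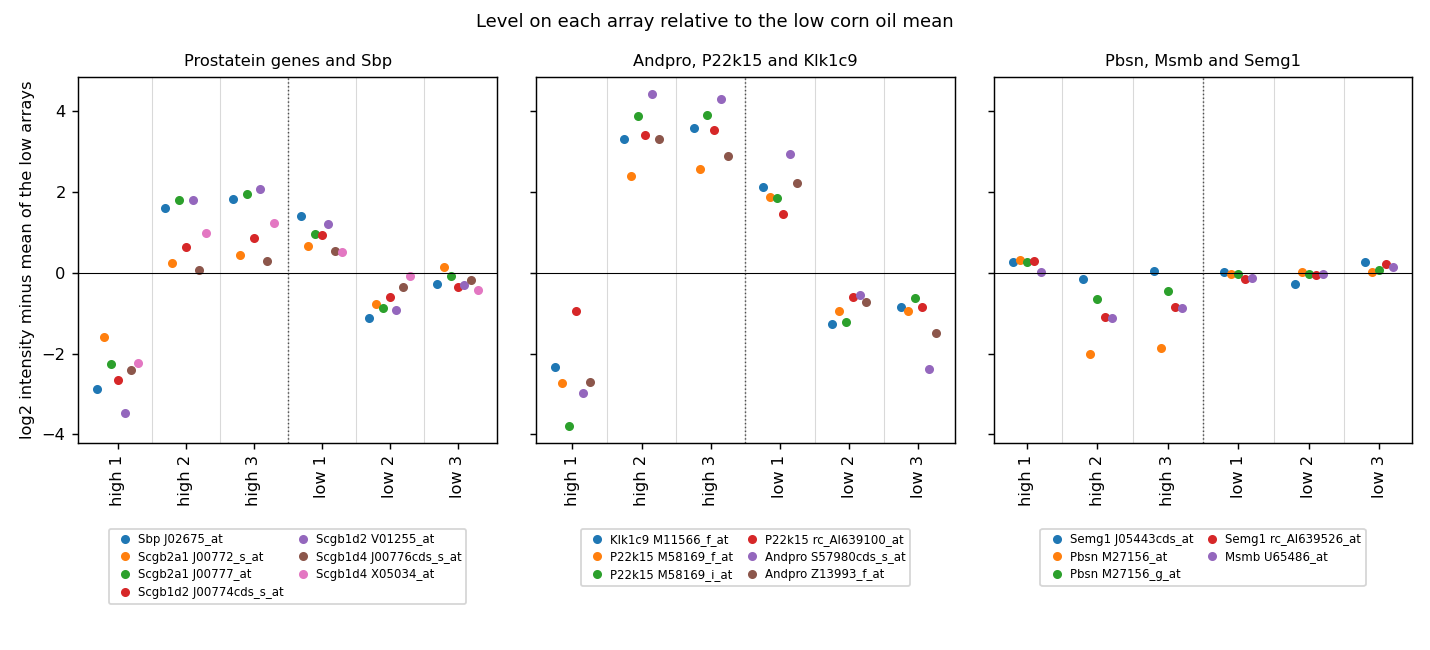
log2 intensity on each array minus the mean of the 3 low corn oil arrays (y axis), for the prostatein genes and Sbp (left), Andpro, P22k15 and Klk1c9 (middle) and Pbsn, Msmb and Semg1 (right); each point is 1 probe set on 1 array, high corn oil arrays left of the dotted line. The left and middle panels share the low place of high corn oil replicate 1 and the high place of low corn oil replicate 1, which the right panel does not show.

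Markers of other cells and glands are given by the summed intensity of their tested genes, of which 0 passed in any list. Macrophage and leukocyte genes, 7 of 9 tested, had their lowest sum in the same rat as the prostatein genes. It was 70697, 83096 and 93542 in high corn oil replicates 1 to 3, against 92987, 84900 and 91575 in the low ones. By the brightest probe set of each gene, only Lyz2 and Cd14 were lowest in that rat. Cd74 and Ptprc were lowest in low corn oil replicate 2, and C1qb, C1qc and Aif1 in high corn oil replicate 2. For C1qb, C1qc and Aif1 all high arrays were below all low ones, against 6.71% of all tested probe sets. Cd14, a coreceptor for lipopolysaccharide on macrophages, had 4209, 7451 and 9747, against 8819, 4675 and 4955 (AF087944mRNA_s_at). Its 3 highest arrays and its lowest were those of Sbp (r = 0.927 over 6 arrays, and 0.952 over 5 without high corn oil replicate 1). The brighter Cd14 probe set, AF087943_s_at, had 4363, 7703 and 8717, against 11313, 5679 and 5247, and was highest in low corn oil replicate 1. Its r with Sbp was 0.879 over 6 arrays, and 0.813 over 5 without high corn oil replicate 1. Smooth muscle genes, 8 of 8 tested, summed to 137792, 169279 and 133907 in the high arrays, against 201446, 163060 and 163654 in the low ones. The luminal keratin and junction genes, 5 of 8 tested, summed to 124146, 104812 and 108259 in the high corn oil arrays, against 114610, 109186 and 109352 in the low ones. Seminal vesicle genes, 2 of 8 tested, summed to 31301 to 42495 in the high and 27487 to 43375 in the low arrays. Svs4, a seminal vesicle secretory protein gene, was bright on every array, while Svs5 was at or below 0 on 5 of 6 arrays. Fibroblast genes, 8 of 9 tested, summed to 90125, 70345 and 65528 in the high arrays, below the 140759, 104266 and 100663 in the low ones. Skeletal muscle genes, 7 of 8 tested, summed to 14610, 36896 and 17425 in the high arrays, against 25688, 29980 and 25297 in the low ones. That sum too was lowest in high corn oil replicate 1. Of the basal cell genes, the keratin gene Krt5 had 9673 to 10001 in high and 7861 to 8769 in low arrays (M93638_at), and Krt14 had 2861 to 4431 and 3158 to 3279 (rc_AI639415_at), while Tp63 was at or below 0 on all 6 arrays. The part of these cells and tissues in the values of the prostatein genes was not tested.

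The other secretoglobins with a probe set were near background. Scgb1a1, the Clara cell secretory protein gene, was at 245 in high corn oil replicate 1 and below 0 on the other 5 arrays. Scgb1c1 ran from 224 to 619 in high and from 7.3 to 287 in low corn oil arrays, and neither was tested. Of 12 other secretoglobin symbols listed, 2 had a probe set named here.

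Genes of polyamine metabolism, which make and control the ligand of spermine-binding protein, varied less than spermine-binding protein itself. Of 12 listed genes 5 were tested and 0 passed. By the brightest probe set of each gene, 3 had a log2 difference above 0 and 2 below, with a median of 0.15. Groups did not overlap for 1 of these 5, against 15.5% of all tested probe sets. Odc1, ornithine decarboxylase, had 3717, 4746 and 5513 in the high corn oil arrays, against 3304, 2785 and 3406 in the low ones, so that its groups did not overlap (J04791_s_at, log2 difference 0.52 ± 0.19 SE, limma adjusted p = 0.480). Its brighter probe set, J04792_at, which stands for Odc1 in that count, overlapped, at 5207 to 5724 in high and 4760 to 6444 in low arrays. Its log2 difference was -0.0007 ± 0.16 (SE). Amd1, which makes the aminopropyl donor for spermine, ran from 8427 to 11645 and from 7656 to 9140. Oaz1, an antizyme that inhibits ornithine decarboxylase, had 23033, 32866 and 35857, against 30208, 32171 and 29014, lowest in high corn oil replicate 1 like Sbp (r = 0.824 over 6 arrays, and 0.465 over 5 without it). Oaz2, a further antizyme, was higher on all 3 high arrays, at 0.43 ± 0.16 in log2 (limma adjusted p = 0.480). Of all tested probe sets, 8.83% had all high arrays above all low ones.

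The genes whose log2 values followed each of the 4 most closely over the 6 arrays were taken from 3158 other tested genes. For Sbp these were P22k15 (r = 0.979), Arhgap10 (0.970), Wrap53 (0.967), Fbxo2 (0.964) and Shank1 (0.963). Without high corn oil replicate 1 the same 5 had r of 0.973, 0.928, 0.921, 0.906 and 0.905. For Scgb2a1 they were Jund (r = 0.989), Fance (0.961), Atp2a3 (0.960), Egfl7 (0.950) and Nup107 (0.934). For Scgb1d2 they were Mmp2 (r = 0.975), Jund (0.960), Nfkbia (0.960), Mpp2 (0.957) and Arhgap10 (0.957). For Scgb1d4 they were Snrpd3 (r = 0.987), Tpm1 (0.970), Mmp2 (0.956), Grk6 (0.955) and Nfkbia (0.951).

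The highest array was 45.8 times the lowest for P22k15 and 9.06 times for Mpp2. Shank1, Egfl7 and Nup107 were below 0 in high corn oil replicate 1 and have no such ratio. Arhgap10, Jund, Mmp2 and Nfkbia, each named for more than 1 gene, had ratios of 2.62, 2.69, 1.85 and 2.83. Snrpd3, with the highest r for Scgb1d4, had a ratio of 1.59. Without high corn oil replicate 1, r with Scgb1d4 was 0.874 for Snrpd3, 0.761 for Mmp2, 0.667 for Tpm1, 0.661 for Grk6 and 0.603 for Nfkbia. The genes named for Scgb1d2 were then at 0.785 to 0.942, and those for Scgb2a1 at 0.858 to 0.969. With 3158 genes and 6 arrays high r values can arise for many genes, and these values are a description.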

How the data were processed

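For each rat the authors deposited linear intensity values of 8799 probe sets from 1 Affymetrix array (6 arrays). Per the submitters' processing notes MAS5 was used, and its version and settings are not given in the sources used here. The trimmed mean is 2503 or 2504 on every array and values below 0 occur. Detection calls were not used here. No pair of arrays shared more than 0.0568% of its values.

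Probe sets were named from the platform annotation (7006 with 1 gene, 6985 updated by identifier to GRCr8 symbols, 308 with several, 1426 with none, 59 controls left out). Values below 0 were set to 0 and transformed as log2(value + 156.1), the median intensity divided by 4. Such fold changes understate those of dim genes. The 5244 probe sets with a mean of at least 343, the 40th percentile, were tested with limma 3.58.1 (R 4.3.3, intensity trend, no covariate), with Benjamini-Hochberg adjustment over all of them and a threshold of 0.05, after the script had been tested on simulated data. Replicates were separate animals. Promoters were compared with Biopython 1.88.

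Named genes were the members, the genes of the lists on secretoglobins, lobes, seminal vesicle and polyamines, the brightest markers of other lists, and for each member the 5 genes with the highest Pearson r. Tp63 is named as undetected, and Cd14 and the other macrophage genes were chosen after their values were seen. The members, lists and tests were chosen with earlier results of these data known.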

Additional observations from a re-analysis of the deposited data

How the results depend on the processing

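Over 18 alternatives, 0 of the 7 probe sets passed limma's adjusted threshold, and the direction turned in 28 of 126 comparisons. Over all probe sets limma called 0, except 9 with no filter on dim probe sets and 214 without high corn oil replicate 1. Moving high corn oil replicate 3 to the low diet, where its free-text label puts it, gave -1.10 in log2 for Sbp, -1.36 for V01255_at of Scgb1d2 and -0.72 for J00777_at of Scgb2a1. With spike-in level as a block these 3 were at -0.51, -0.70 and -0.17. With array weights J00772_s_at was at 0.48, J00774cds_s_at at 0.62, J00776cds_s_at at 0.053 and X05034_at at 0.76. X05034_at was at 0.019 with a pseudocount 4 times as large and at 0.16 after quantile normalization. Taking a gene's other probe set in place of the brightest gave 0.13 for Scgb1d2 and 0.49 for Scgb2a1. The cause of these turns was not tested.

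Leaving out 1 array at a time, the log2 difference ran from -0.64 to 1.71 for Sbp, from -0.70 to 0.34 for J00772_s_at, from -0.23 to 1.87 for J00777_at, from -1.02 to 0.75 for J00774cds_s_at, from -0.84 to 1.93 for V01255_at, from -1.17 to 0.18 for J00776cds_s_at and from -0.62 to 1.11 for X05034_at. The count of all probe sets called ran from 0 to 214, and that of the 7 stayed at 0. With the replicate number as a block limma called 0 probe sets in all (554 at an unadjusted p under 0.05) and 0 of the 7. Deviations from the diet mean correlated at -0.05, -0.20 and 0.18 for same-numbered arrays, and at -0.16 to 0.27 for differently numbered ones. With 3 arrays for each diet these values depend on one another, so they cannot show whether the number pairs the rats.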

Other observations

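The prolactin receptor gene Prlr, whose hormone is known to act on rat prostate lobes, ran against the prostatein genes among the high corn oil rats. Its brightest probe set (M74152_s_at) had 5061, 1603 and 2447 in high corn oil replicates 1 to 3, against 2675, 2830 and 2587 in the low corn oil arrays. It was highest in the rat with the lowest Sbp and lowest in the other two high corn oil rats. L48060_s_at had 2260, 782 and 1134, against 1600, 1249 and 1378, and M34083_at had 991, 89.6 and 317, against 898, 988 and 948, with the same arrays at both ends. A further probe set, U34897mRNA_at, went the other way among the high corn oil rats, at 575, 1534 and 1527, against 1065, 795 and 412. The log2 difference between diets was 0.014 ± 0.37 for M74152_s_at (SE, limma adjusted p = 0.988). Hsd17b6, an enzyme of androgen metabolism, had 485, 820 and 1095 in the high corn oil arrays, against 323, 322 and 87 in the low ones. Its groups did not overlap, with a difference of 1.27 ± 0.41 (limma adjusted p = 0.475). Of 12 listed androgen receptor axis genes 4 were tested by their brightest probe set and 0 passed. Among these only Hsd17b6 had groups that did not overlap, against 15.5% of all tested probe sets. A dimmer probe set of Hsd17b4, S83279_g_at, had all high arrays below all low ones.

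Besides the genes named so far, Sds, which encodes serine dehydratase, and Klk1, a kallikrein gene, were among the 10 tested probe sets with the largest spread between rats of the same diet. These genes, Prlr, Hsd17b6 and Hsd17b4 were chosen after their values were seen. The SD of the log2 intensity was 2.46 for Sds (rank 5) and 2.18 for Klk1 (rank 10).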
